A study of Mus musculus with 6 samples.

Results

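The 70 genes described here are the rows of the deposited table that KEGG, a pathway database, places in nucleocytoplasmic transport and not also in the spliceosome, out of 4656 rows in all. They comprise 24 nucleoporins, 23 importins, exportins and their adaptors, 7 genes of the Ran cycle with its SUMO partners, and 16 genes of mRNA export and other steps. Messenger RNA was sequenced from primary mouse microglia, the resident macrophages of the brain, in 6 libraries. The 3 Ctrl libraries came from Nus1fl/fl mice, in which the gene is flanked by sites for Cre recombination, and the 3 cKO libraries from Nus1cKO mice. Nus1 encodes a subunit of the enzyme that makes dolichol, the lipid carrier of the sugars used in protein N-glycosylation. Both groups are described under 1 treatment, tamoxifen at 100 mg/kg injected on 5 days from postnatal day 28, with brains taken 30 days after the last dose and microglia sorted by flow cytometry. A culture medium for primary microglia is also described, and the labels leave unsaid whether cells were cultured before sequencing. They also leave unsaid which promoter drives Cre, whether Ctrl mice carried Cre, and which library came from which animals.

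Large molecules cross the nuclear envelope through the nuclear pore, a ring-shaped assembly of nucleoporins whose central channel is filled with flexible repeats. Importins carry proteins with a nuclear localization signal inwards and exportins carry proteins and RNAs outwards, and the small GTPase Ran, bound to GTP in the nucleus and to GDP in the cytosol, decides where cargo is loaded and released. Messenger RNA leaves by a separate route through the Nxf1-Nxt1 exporter, after being coated by the TREX and exon junction proteins. Microglia depend on this traffic for the entry of NF-kB, STAT and IRF transcription factors, and dividing cells rebuild their pores at each mitosis.

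The table lists only genes that passed the authors' test, each with a q-value below 0.05, and these were 29.4% of the 15835 genes they tested. A transport gene without a row is therefore of unknown level and change. Of 33 nucleoporin genes listed, 24 had a row, as did 24 of 31 listed transport receptors and adaptors and 35 of 58 listed mRNA export genes. In the Ran cycle list, which includes some SUMO genes, 13 of 14 had a row, and in a separate SUMO list 12 of 18. The lists were made with earlier results of these data known. Reads in the rows summed to between 10786150 and 11033144 per library, and Nus1 had 59.4, 60.9 and 59.2 TPM in Ctrl and 14.1, 13.6 and 13.8 TPM in cKO. TPM is a transcript level scaled by gene length and by library, and log2 fold changes are cKO over Ctrl from edgeR on counts scaled by the authors' size factors. The TPM scaling differs from these factors, so that cKO over Ctrl ratios of TPM lie slightly higher than the fitted folds. Of 18 microglial markers 9 had a row, of which 8 fell and 1 (Itgam) rose; their median was -0.49 (log2 fold change), with a summed level of 1536 to 1620 TPM in Ctrl and 1344 to 1420 TPM in cKO. Tyrobp at 788 TPM and Trem2 at 211 TPM in Ctrl were among the higher of them and Cx3cr1 at 15.98 TPM was low, while P2ry12, Tmem119 and Sall1 had no row. Markers of lymphocytes (14 genes) and neurons (10 genes) had 0 rows. Of 9 astrocyte, 12 endothelial and mural, 12 monocyte and neutrophil and 11 oligodendrocyte genes 1 each had a row, and their summed levels stayed below 1 TPM apart from Cnp at 22.2 to 28.0 TPM. Of 10 markers of border macrophages 4 had a row, summing to between 67.4 and 83.8 TPM in Ctrl and to between 66.9 and 72.0 TPM in cKO; 3 fell and 1 (Siglec1) rose, with a median of -0.92. These medians lie further below 0 than the -0.22 of the transport genes, and the part of these markers in the results that follow was not tested.

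Promoters are shown for 3 genes at the centre of the import cycle that fell (Ran, Kpna2 and Kpnb1) and for 2 of the 3 members that rose (Nup62 and Nxf7). They are RefSeq sequences of the mouse build GRCm38.p6, 250 bases before to 50 after the start of each gene, written 5′ to 3′ on the gene's strand. Capitals mark exact matches, on either strand, of the 7 motifs searched: the NRF1 motif (a palindrome, seen as the first run of capitals in the Ran window), CACGTG (the E-box of MYC and related factors), CCAAT (the NF-Y box), TTTGAA (the cell cycle genes homology region, CHR), TTTCCCGC and TTTGGCGC (forms of the E2F site) and TGATGNAA (the C/EBP-ATF response element). The windows are chr5:129019906-129020205 on the plus strand for Ran, chr11:106999476-106999775 on the minus strand for Kpna2, chr11:97187843-97188142 on the minus strand for Kpnb1, chr7:44815838-44816137 on the plus strand for Nup62 and chrX:135598732-135599031 on the minus strand for Nxf7.
Ran: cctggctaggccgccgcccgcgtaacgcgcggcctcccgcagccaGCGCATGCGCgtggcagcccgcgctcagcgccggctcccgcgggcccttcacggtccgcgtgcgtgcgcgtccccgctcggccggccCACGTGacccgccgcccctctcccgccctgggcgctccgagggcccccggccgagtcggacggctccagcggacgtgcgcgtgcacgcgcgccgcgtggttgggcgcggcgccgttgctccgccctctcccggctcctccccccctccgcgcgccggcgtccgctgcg
Kpna2: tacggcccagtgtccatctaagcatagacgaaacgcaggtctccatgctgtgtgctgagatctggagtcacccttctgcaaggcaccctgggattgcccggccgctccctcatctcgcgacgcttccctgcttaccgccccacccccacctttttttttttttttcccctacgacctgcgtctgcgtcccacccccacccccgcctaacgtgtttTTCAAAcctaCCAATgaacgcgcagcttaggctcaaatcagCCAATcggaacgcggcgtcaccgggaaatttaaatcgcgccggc
Kpnb1: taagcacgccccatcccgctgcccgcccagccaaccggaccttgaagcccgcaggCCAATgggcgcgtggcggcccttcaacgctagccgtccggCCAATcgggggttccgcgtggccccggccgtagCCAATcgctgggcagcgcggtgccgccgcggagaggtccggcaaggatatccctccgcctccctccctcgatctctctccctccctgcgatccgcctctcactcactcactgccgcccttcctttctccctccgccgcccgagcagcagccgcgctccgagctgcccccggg
Nup62: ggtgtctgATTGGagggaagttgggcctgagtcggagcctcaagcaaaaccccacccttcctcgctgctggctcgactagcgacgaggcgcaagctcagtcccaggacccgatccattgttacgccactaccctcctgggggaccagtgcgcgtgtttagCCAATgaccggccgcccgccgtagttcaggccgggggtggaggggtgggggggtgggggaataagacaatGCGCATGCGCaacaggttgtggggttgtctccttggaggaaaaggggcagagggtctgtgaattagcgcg
Nxf7: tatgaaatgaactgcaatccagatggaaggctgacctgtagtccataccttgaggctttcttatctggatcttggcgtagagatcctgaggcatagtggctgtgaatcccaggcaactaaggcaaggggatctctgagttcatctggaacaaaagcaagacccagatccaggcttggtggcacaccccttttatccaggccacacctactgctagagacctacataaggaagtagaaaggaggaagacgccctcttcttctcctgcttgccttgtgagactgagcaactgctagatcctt
The Ran window holds 1 NRF1 match and 1 E-box, the Kpna2 window 1 CHR and 2 CCAAT boxes close to the start site, and the Kpnb1 window 3 CCAAT boxes. The Nup62 window holds 1 NRF1 match and 2 CCAAT boxes, and Nxf7 holds no match in this window. Promoters were found for 56 of the 70 genes, with 67 windows. The NRF1 motif was in 10.4% of these windows and in 0.974% of all 32544 RefSeq promoter windows, which include windows of genes that are silent in these cells. The 7 genes with it were Ran, Nup62, Nup50, Nup107, Xpo5, Upf1 and Srrm1, of which Nup62 rose and the other 6 fell. For the remaining motifs the shares were 40.3% against 37.4% for CCAAT, 16.4% against 17.8% for TTTGAA, 11.9% against 7.17% for CACGTG, 1.49% against 3.91% for TGATGNAA, 1.49% against 1.08% for TTTCCCGC and 0% against 0.519% for TTTGGCGC. A match describes letters only and was not tested for binding.

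With the authors' size factors, nuclear transport genes that had a row were lower in cKO microglia almost throughout, each by a small amount. Of the 70 genes 69 passed the filter on low counts, of which 66 fell and 3 rose at an adjusted p under 0.05 (edgeR quasi-likelihood test, Benjamini-Hochberg adjustment over 15835 genes). Among all 4640 rows tested the same way 53.6% were called lower and 46.4% higher, so 100% were called in either direction, and nothing can be read from the count of calls as such. Of the 69 transport genes 95.7% were lower. Their median log2 fold change was -0.22, a decrease of 13.9% at the median, beside -0.12 over all rows tested. Of the 69 genes 61 lay below the median of all rows. Since genes with small changes had no row, that median is not the typical change of all genes in these cells. In size the decreases lay near those of other rows: the 66 genes that fell had a median of -0.22 and the 2486 rows that fell a median of -0.24. Decreases of 20% or more were found for 10 genes, of 10 to 20% for 43 and of less than 10% for 13.

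**Figure D1:**
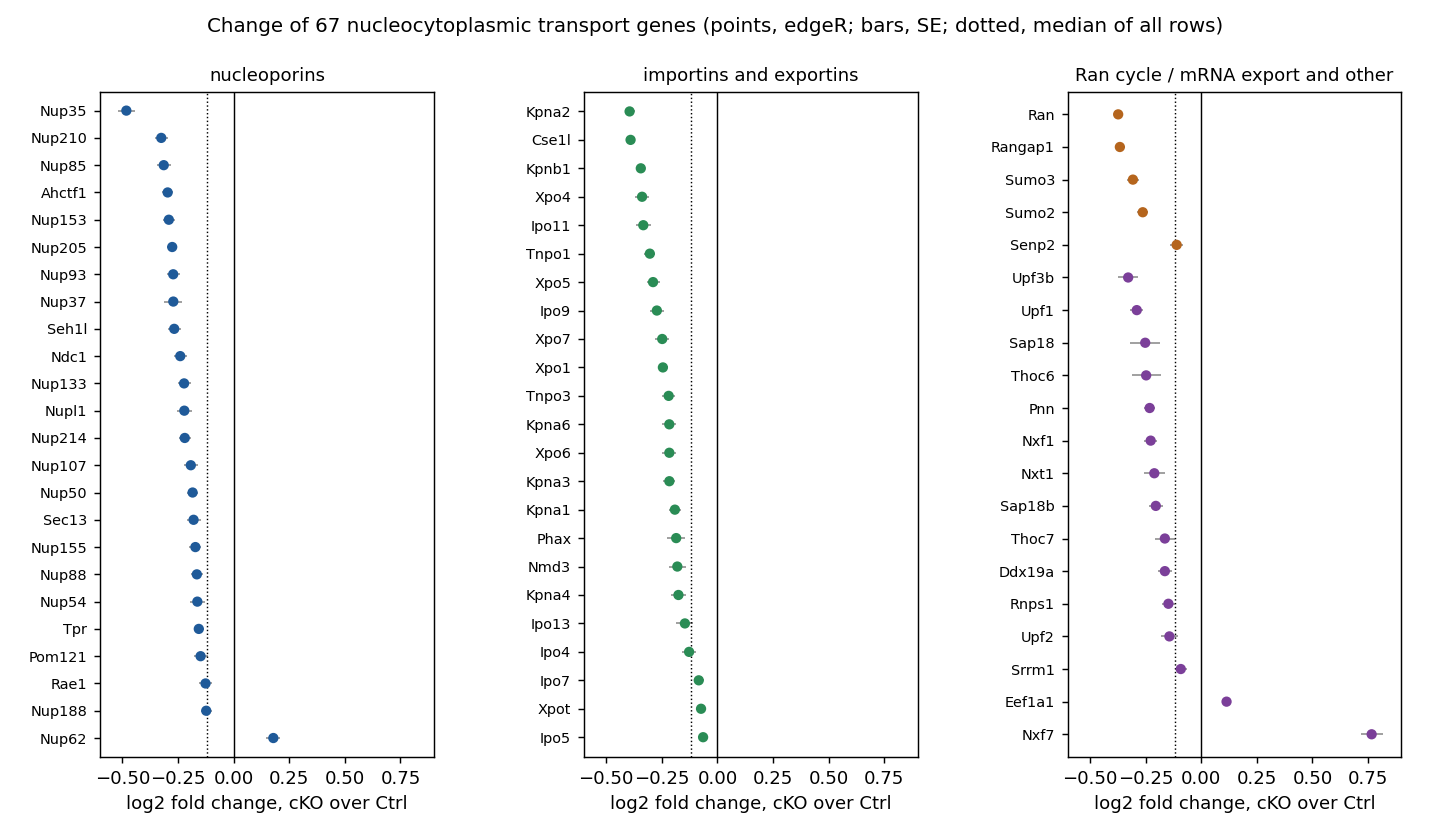
Log2 fold change of 67 of the 69 tested transport genes, cKO over Ctrl, from edgeR with the authors' size factors; points are estimates from 3 against 3 libraries, bars are SE, the solid line is 0 and the dotted line is the median of all rows (-0.12). All points lie left of 0 except Nup62, Eef1a1 and Nxf7.

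The 3 cKO libraries gave nearly the same value. The median over the 69 genes of each gene's log2 normalized count relative to its Ctrl mean was -0.0031, 0.0099 and -0.0065 for Ctrl replicates 1 to 3, and for the cKO replicates it was -0.22, -0.22 and -0.21. On the authors' normalized counts every cKO library lay below every Ctrl library for 67 genes and above every Ctrl library for 3, against 53.1% below, 46.3% above and 99.4% either way among all 4656 rows. On the TPM scale 65 lay below, 3 above and 2, Senp2 and Srrm1, overlapped. The share over all rows was not computed on that scale, so nothing is read from these counts. The median coefficient of variation in TPM was 1.33% within Ctrl and 2.4% within cKO. Taken gene by gene, exact permutation (two-sided) gave p = 0.1 for each of the 70 genes, which is as low as 3 against 3 libraries can go. Across the 69 genes, which share libraries, level and change showed little relation (Spearman rho 0.032 and Pearson r 0.0088 between log2 TPM in Ctrl and log2 fold change, a description across genes).

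**Figure D2:**
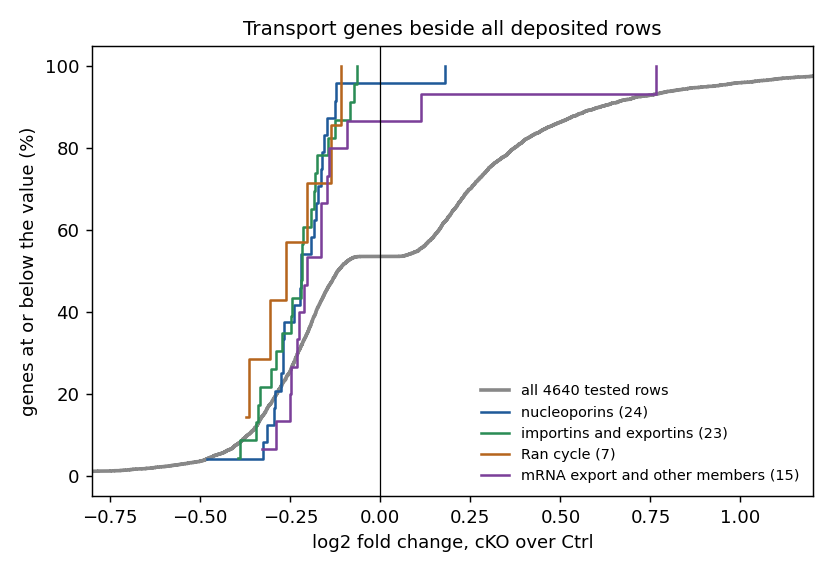
Share of genes at or below each log2 fold change, cKO over Ctrl, for the 4 groups of transport genes and for all 4640 tested rows (grey). The importin and exportin curve and the Ran cycle curve reach 100% before 0, whereas the grey curve is flat around 0, at 53.6%, since small changes were not among the deposited rows; the axis ends before the largest changes of all rows.

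The Ran cycle stood first by median decrease among the 4 groups, with all 7 members lower and a median of -0.26. That median is the value of Sumo2, and the rank rests on 2 genes, Ran and Rangap1, with a median of -0.37. The 5 SUMO members had a median of -0.20, beside -0.22 for nucleoporins and -0.22 for importins and exportins. Ran (ENSMUSG00000029430, chromosome 5, 129097220 to 129101386, mm39) is the GTPase itself and had 731, 725.5 and 721 TPM in Ctrl and 564, 575 and 574 TPM in cKO. The groups were far apart, and the log2 fold change was -0.37 ± 0.02 (SE, n = 3 each; edgeR adjusted p = 4.3e-20), a decrease of 22.8%. Rangap1, which makes Ran hydrolyse its GTP at the cytosolic face of the pore, had 172, 176 and 172 TPM in Ctrl and 134, 140 and 137 TPM in cKO (log2 fold change -0.37 ± 0.02, SE, n = 3 each; edgeR adjusted p = 1.3e-16). Within libraries the TPM of Rangap1 over that of Ran was 0.239 ± 0.00337 in Ctrl and 0.24 ± 0.00351 in cKO (SD, n = 3; overlapping groups, exact two-sided permutation p = 0.6). Rangap1 is held at the pore by SUMO, and SUMO genes of the pathway were lower too. Sumo2 had 634, 650 and 643 TPM in Ctrl and 541, 554 and 545 TPM in cKO (-0.26 ± 0.02, SE), and Sumo3 fell by 0.31 on the log2 scale from 98.99 ± 1.16 TPM (SD, n = 3). The SUMO protease Senp2 was at -0.11, the smallest change of the group, and was not called with TMM, RLE or upper-quartile factors or with DESeq2. Sumo2 has non-whole counts in all 6 libraries, as estimated counts have where reads are divided between features.

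Genes of the Ran cycle list, which includes some SUMO genes, that KEGG does not place in this pathway were lower as well. All 6 such genes with a row fell, with a median of -0.33, beside 53.6% lower among all rows tested. Rcc1, the chromatin-bound exchange factor that loads Ran with GTP, had 112, 109 and 108 TPM in Ctrl and 79.0, 81.1 and 76.7 TPM in cKO (log2 fold change -0.50 ± 0.03, SE). Ranbp1, a co-activator of Ran's GTPase activity, was at -0.36 and Nutf2, which returns Ran-GDP to the nucleus, at -0.29. Rangrf, a Ran-binding protein, was at -0.71 ± 0.07 (SE), with non-whole counts in all 6 libraries. Senp1 and Rcc2, an Rcc1-like protein of mitosis, were at -0.19 and -0.16.

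All 23 importins, exportins and adaptors were lower, with a median of -0.22 and a range from -0.39 to -0.06. Their number of lower calls was 17 with RLE factors, 16 with upper-quartile factors and 15 with DESeq2, where Ipo5 and Xpot lay just above 0. Kpna2, importin alpha 1, an adaptor that binds the classical nuclear localization signal, lies on chromosome 11 from 106879455 to 106890351 (mm39). It had 346.5, 349 and 344.5 TPM in Ctrl and 261, 272 and 273 TPM in cKO, and the log2 fold change was -0.39 ± 0.02 (SE, n = 3 each; edgeR adjusted p = 2.8e-18). Cse1l, the exportin that returns empty importin alpha to the cytosol, lies on chromosome 2 from 166747961 to 166788309 and had 203, 204 and 199.7 TPM in Ctrl and 155, 159 and 158 TPM in cKO. Its log2 fold change was -0.39 ± 0.02 (SE, n = 3 each; edgeR adjusted p = 1.1e-18). In both genes the lowest Ctrl library stood well above the highest cKO library. The TPM of Cse1l over that of Kpna2 was 0.583 ± 0.0032 in Ctrl and 0.585 ± 0.00835 in cKO (SD, n = 3; overlapping groups, exact two-sided permutation p = 0.8). Kpnb1, importin beta, which carries the adaptor and its cargo through the pore, had 263, 256 and 255 TPM in Ctrl and 210, 208 and 202 TPM in cKO (log2 fold change -0.34 ± 0.02, SE, n = 3 each; edgeR adjusted p = 3.0e-18). Xpo4, a transport receptor of the same family, was at -0.34 ± 0.03 (SE), from 31.9 to 25.5 TPM.

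Within the importin alpha family the decrease was uneven. Kpna1, Kpna3, Kpna4 and Kpna6, the other 4 adaptors with a row, were at -0.19, -0.22, -0.18 and -0.22, decreases of 11.4% to 13.9% beside 23.9% for Kpna2. Kpna2 made up a smaller part of importin alpha transcripts: 61.1%, 60.6% and 61.0% of the summed TPM of the 5 genes in Ctrl and 56.8%, 57.9% and 58.0% in cKO, without overlap. This share needs no scaling between libraries. The family as a whole summed to 569 ± 5.87 TPM in Ctrl and 467 ± 7.13 TPM in cKO (SD, n = 3).

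Among the 9 import receptors of the importin beta family the decreases spanned from -0.34 for Kpnb1 to -0.06 for Ipo5. Ipo11 (-0.33), Tnpo1 (-0.30), which imports RNA-binding proteins, and Ipo9 (-0.27), an importin of histones, stood near Kpnb1. Tnpo3, which imports splicing factors rich in arginine and serine, was at -0.22, Ipo13 at -0.15 and Ipo4 at -0.13. Ipo7 and Ipo5, which bring in ribosomal proteins among other cargo, were abundant and close to level: Ipo7 had 193.5, 193.7 and 195.2 TPM in Ctrl and 191, 182 and 186.97 TPM in cKO, and Ipo5 had 210, 213 and 214 TPM in Ctrl and 205, 207 and 209 TPM in cKO. The 2 genes kept groups that did not overlap, but by little. Relative to Kpnb1 in the same library, Ipo5 went from 0.824 ± 0.0212 to 1.0 ± 0.0291 (SD, n = 3, no overlap; exact two-sided permutation p = 0.1).

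The 7 export receptors had a median of -0.25. Xpo1, the main exporter of proteins with a leucine-rich signal and the target of leptomycin B, had 169, 171 and 168 TPM in Ctrl and 142, 146 and 149 TPM in cKO (log2 fold change -0.24 ± 0.02, SE). Xpo5, which exports microRNA precursors, was at -0.29, Xpo7 at -0.25 and Xpo6, an exporter of actin, at -0.22. Xpot, the exporter of transfer RNA, was again close to level with 94.7, 93.5 and 95.8 TPM in Ctrl and 90.3, 93.1 and 90.8 TPM in cKO (log2 fold change -0.07 ± 0.02, SE). Its TPM over that of Xpo1 went from 0.558 ± 0.0114 to 0.627 ± 0.015 (SD, n = 3, no overlap). The adaptors Phax, for small nuclear RNA, and Nmd3, for the large ribosomal subunit, were at -0.19 and -0.18.

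**Figure D3:**
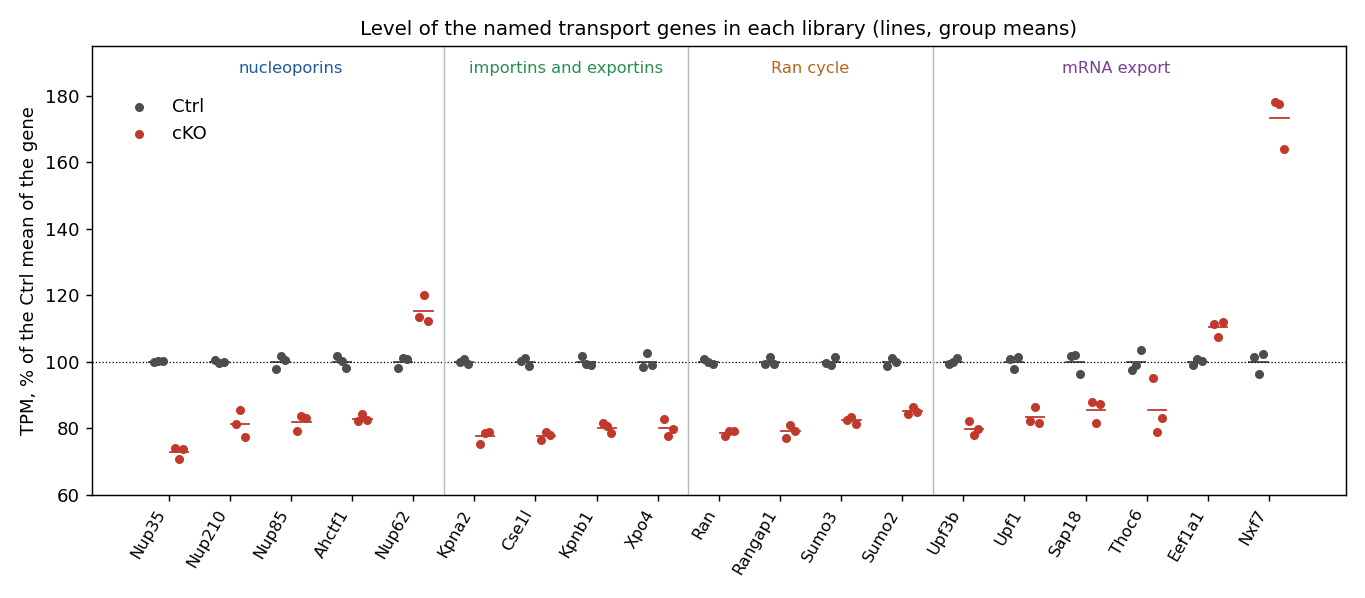
TPM of the 19 named transport genes in each of the 6 libraries, as a percentage of the gene's mean in Ctrl; points are libraries and short lines are group means, and the vertical axis starts at 60%. The cKO points lie below all Ctrl points except for Nup62, Eef1a1 and Nxf7, where they lie above.

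Of the 24 nucleoporins 23 were lower and 1 was higher, with a median of -0.22. Nup35, an inner ring protein that touches the pore membrane, had the largest decrease of all 69 genes. It lies on chromosome 2 from 80469156 to 80490415 (mm39) and had 46.95, 47.1 and 47.1 TPM in Ctrl and 34.9, 33.3 and 34.7 TPM in cKO (log2 fold change -0.48 ± 0.04, SE, n = 3 each; edgeR adjusted p = 1.0e-13), a decrease of 28.4%. The rest of the inner ring ranged from -0.28 for Nup205 and -0.27 for Nup93 to -0.17 for Nup155 and -0.12 for Nup188. All 7 members of the Y complex, the outer ring that also seeds new pores on chromatin, fell between -0.31 and -0.18, with a median of -0.27. Nup85 in this complex had 115, 119 and 118 TPM in Ctrl and 92.9, 97.99 and 97.2 TPM in cKO (log2 fold change -0.31 ± 0.03, SE). Ahctf1, known as ELYS, which recruits the Y complex to chromatin at the end of mitosis, had 45.3, 44.7 and 43.7 TPM in Ctrl and 36.6, 37.5 and 36.7 TPM in cKO (-0.30 ± 0.02, SE).

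The membrane anchors were lower as well. Nup210 had 34.2, 33.9 and 34.0 TPM in Ctrl and 27.6, 29.0 and 26.3 TPM in cKO (log2 fold change -0.33 ± 0.03, SE), and Ndc1 and Pom121 were at -0.24 and -0.15. On the nuclear side the basket protein Nup153 was at -0.29, Nup50 at -0.18 and Tpr, which forms the filaments of the basket, at -0.16. On the cytosolic side Nup214 was at -0.22, Nup88 at -0.17 and the mRNA export factor Rae1 at -0.13. These medians of -0.18 and -0.17 were smaller decreases than the -0.27 of the Y complex and of the inner ring, but each rests on only 3 genes. The calls of Pom121, Nup188, Rae1 and the channel protein Nup54 ended with RLE factors, upper-quartile factors and DESeq2. That of Sec13, of the Y complex, ended with DESeq2 alone (DESeq2 adjusted p = 0.072). Summed over the 24 nucleoporins, levels were 1797 ± 1.82 TPM in Ctrl and 1588 ± 16.6 TPM in cKO (SD, n = 3), 11.7% lower.

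Nup62 was the nucleoporin that rose. It forms the central channel of the pore together with Nup54 and Nup58, the latter under its older symbol Nupl1 in the table. Nup62 (ENSMUSG00000109511, chromosome 7, 44465512 to 44481260, mm39) had 48.1, 49.7 and 49.4 TPM in Ctrl and 55.7, 59.0 and 55.02 TPM in cKO (log2 fold change 0.18 ± 0.03, SE, n = 3 each; edgeR adjusted p = 7.3e-06). All cKO libraries stood above all Ctrl libraries, while Nup54 and Nupl1 were at -0.16 and -0.22. The TPM of Nup62 over that of Nup54 went from 0.646 ± 0.0145 to 0.819 ± 0.00926 (SD, n = 3, no overlap), whereas Nup54 over Nupl1 was 1.43 ± 0.0689 and 1.49 ± 0.0881 (SD, n = 3, overlapping groups, exact two-sided permutation p = 0.5). The span of Nup62 shares 571 bases with that of Atf5, a stress-induced transcription factor gene that RefSeq places on the opposite strand, and no source used here says whether counting took account of strand. Atf5 rose by 1.68 ± 0.08 (log2, SE), from 175 ± 19.2 to 562 ± 56.9 normalized counts (SD, n = 3), a gain of 387, while Nup62 gained 251 from 1903 ± 43.9 normalized counts. The part of Atf5 reads in the increase of Nup62 was not tested.

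**Figure D4:**
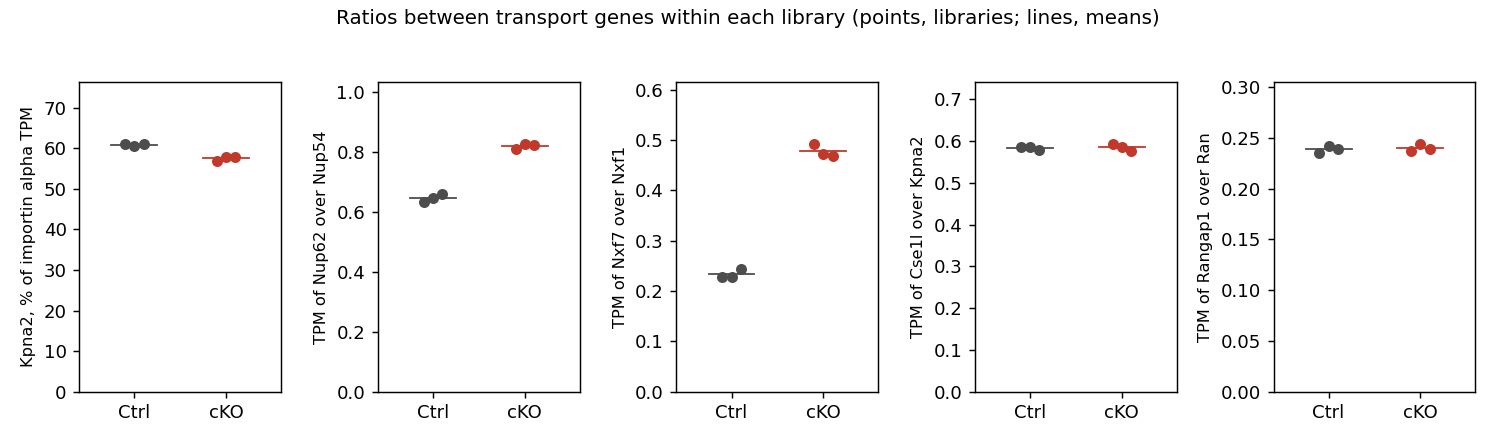
Ratios between transport genes within each library, from TPM; the first panel gives Kpna2 as a percentage of the summed TPM of 5 importin alpha genes, and each vertical axis starts at 0. Points are the 3 libraries of a group and lines their means; Nup62 over Nup54 (0.646 against 0.819) and Nxf7 over Nxf1 (0.233 against 0.477) separate the groups, whereas Cse1l over Kpna2 and Rangap1 over Ran do not.

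In mRNA export and the remaining steps 13 of 15 tested genes fell and 2 rose, with a median of -0.20. Nxf1, the general mRNA exporter, had 112, 106 and 105 TPM in Ctrl and 90.9, 94.5 and 87.9 TPM in cKO (log2 fold change -0.23 ± 0.03, SE), and its partner Nxt1 was at -0.21. The call of Nxt1 ended with upper-quartile factors (edgeR adjusted p = 0.054) and with DESeq2 (DESeq2 adjusted p = 0.161). Nxf7, a paralog of Nxf1 on the X chromosome (134480304 to 134499530, mm39), rose instead. It had 25.4, 24.2 and 25.7 TPM in Ctrl and 44.7, 44.6 and 41.2 TPM in cKO (log2 fold change 0.77 ± 0.05, SE, n = 3 each; edgeR adjusted p = 7.4e-17), 70.1% higher and the largest change in either direction among the 69 genes. Its counts and those of Nxf1 were whole in all 6 libraries. The TPM of Nxf7 over that of Nxf1 was 0.227, 0.228 and 0.244 in Ctrl and 0.492, 0.472 and 0.468 in cKO.

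The nonsense-mediated decay factors that travel with exported messages were lower. Upf3b had 39.9, 40.2 and 40.7 TPM in Ctrl and 33.1, 31.4 and 32.1 TPM in cKO (log2 fold change -0.33 ± 0.04, SE), and the helicase Upf1 had 54.3, 52.7 and 54.5 TPM in Ctrl and 44.2, 46.5 and 43.9 TPM in cKO (-0.29 ± 0.03, SE). Upf2 was at -0.14. Thoc6, a TREX subunit, had 34.6, 35.2 and 36.7 TPM in Ctrl and 33.7, 28.0 and 29.5 TPM in cKO (-0.25 ± 0.06, SE), with cKO replicate 1 close to the Ctrl libraries. Sap18, of the splicing-dependent ASAP complex, was at -0.25 ± 0.07 from 10.7 ± 0.342 TPM (SD, n = 3), and its near-copy Sap18b at -0.20 from 429 ± 3.62 TPM. Both have non-whole counts in all 6 libraries, so their separate values are uncertain. Thoc6 and Ddx19a have non-whole counts in all 6 libraries too. Pnn, Thoc7, Rnps1 and Srrm1 were at -0.23, -0.16, -0.15 and -0.09, and the RNA helicase Ddx19a, which strips export factors from mRNA at the pore, at -0.16. The calls of Thoc6, Sap18, Upf2, Thoc7, Rnps1, Srrm1 and Ddx19a ended with RLE factors (edgeR adjusted p = 0.058, 0.059, 0.4, 0.235, 0.07, 1.0 and 0.052), with upper-quartile factors and with DESeq2, and those of Upf2 and Srrm1 also with TMM factors.

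Eef1a1, the elongation factor that brings aminoacyl-tRNA to the ribosome and by far the most abundant of the 70 genes, had 12322, 12517 and 12458 TPM in Ctrl and 13849, 13358 and 13934 TPM in cKO. It rose by 0.11 ± 0.02 (log2, SE, n = 3 each; edgeR adjusted p = 5.1e-07). It made up 61.6% of the summed TPM of the 70 genes in Ctrl, and many processed copies of this gene exist that can share its reads, which were non-whole in 5 libraries. Without it the summed level of the other genes was 7765 ± 6.28 TPM in Ctrl and 6744 ± 39.7 TPM in cKO (SD, n = 3), 13.2% lower. Its paralog Eef1a2 had 1, 3 and 6 reads in Ctrl and 0 in each cKO library, did not pass the filter and is too rare here to compare.

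Genes next to the pathway were mixed. The 8 rows left out because KEGG also places them in the spliceosome all fell, beside 53.6% lower among all rows tested. Their median was -0.27, and the TREX genes Alyref (-0.28), Thoc3 (-0.30) and Ddx39b (-0.25) were among them. Of 11 further mRNA export genes outside both, 9 fell and 2 rose, the largest decrease being that of the helicase Ddx39a (-0.41 ± 0.02, SE). Of 21 genes listed for the nuclear lamina and envelope 11 had a row, and 5 rose and 6 fell with a median of -0.13. The lamins Lmnb1 (-0.35) and Lmnb2 (-0.24) and the lamina-associated Tmpo (-0.23) fell, and the linker genes Syne1 (0.35) and Sun1 (0.21), Lemd2 (0.32) and Nemp1 (0.36) rose. Of 7 SUMO genes outside the 70, 5 fell and 2 rose, with the subunits of the activating enzyme, Sae1 and Uba2, at -0.34 and -0.31. The larger of the 2 rises was 0.48, and Senp1 is counted here as well as in the Ran cycle list. The lower transcripts in lamina and mRNA export lists were not compared by a test with those of the pathway.

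Markers of dividing cells moved in the same direction. All 20 of 20 listed proliferation genes had a row and were lower. Among the genes the authors tested 29.4% had a row, and of all rows tested here 53.6% were lower. The list was made with earlier results of these data known, so its count is no independent result. The 20 genes had a median of -0.26, from Cdc20 at -0.53 to Top2a at -0.10. Their summed level was 3364 to 3378 TPM in Ctrl and 2816 to 2877 TPM in cKO. The part of this difference in the change of the transport genes was not tested, and in bulk libraries fewer dividing cells and less RNA per cell cannot be told apart.

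The number of these small changes that were called differed between scalings and tests, and the direction of a few did too. The lower and higher calls among the transport genes numbered 66 and 3 with the authors' size factors, 60 and 3 with TMM factors, 47 and 3 with RLE, 45 and 3 with upper-quartile factors and 43 and 3 with DESeq2. Among all rows the shares called lower in these fits were 53.6%, 50.2%, 40.3%, 37.3% and 32.4%, and the shares called in either direction 100%, 96.7%, 86.7%, 83.7% and 79.0%. DESeq2 called 2168 rows higher and 1510 lower, beside 2154 and 2486 with the authors' size factors; it differs in its test as well as in its scaling. The median of the transport genes stayed -0.10 from that of all rows in each of these fits and with library size alone. A change of scaling shifts all rows by nearly the same amount, so this distance could hardly move and is no check on the scaling. Nup62, Nxf7 and Eef1a1 were above 0 in all of these fits. Ipo5 and Xpot turned to 0.01 and 0.0048 with RLE, to 0.01 and 0.0044 with DESeq2, and to 0.02 and 0.01 with upper-quartile factors, where Ipo7 was also just above 0 (0.0046). These 3 genes were not called with TMM factors, library size, RLE, upper-quartile factors or DESeq2.

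**Figure D5:**
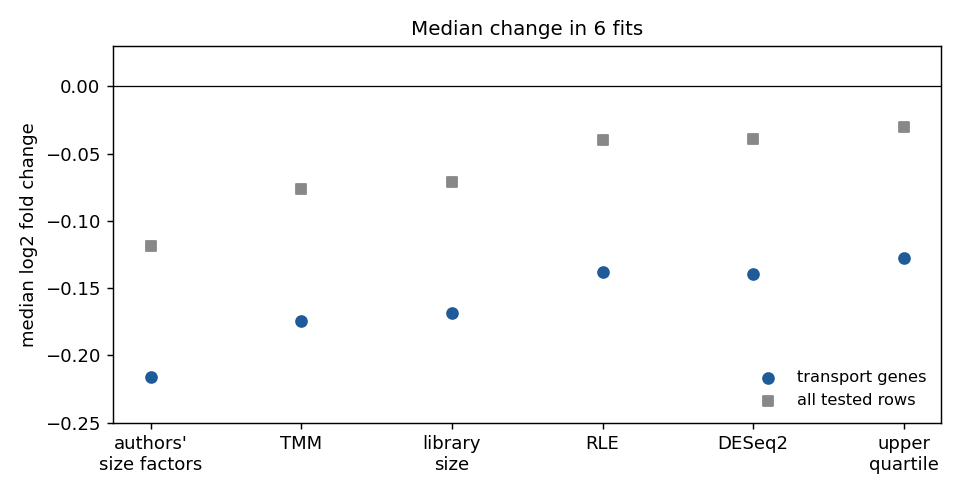
Median log2 fold change, cKO over Ctrl, of the transport genes (circles) and of all tested rows (squares) in 6 fits, of which 5 differ in the scaling of libraries and DESeq2 also in the test. Both medians move up together, from -0.22 and -0.12 with the authors' size factors to -0.13 and -0.03 with upper-quartile factors.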

How the data were processed

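Messenger RNA libraries of 3 Ctrl and 3 cKO samples were compared, grouped by their titles. The submitters' processing notes name Bowtie2 2.4.5, the build mm39 and DESeq2 1.34.0, and no read counter. The authors deposited estimated counts per gene, not normalized, of which 11.1% of entries were not whole (tolerance 1e-06), with FPKM and TPM, both scaled by length and library by the authors. It also holds the authors' normalized counts, a signal equal in 100% of entries to the count rounded up over 1 size factor per library (0.987 to 1.02), and, per the file headers, the authors' q-value, p-value and log2 fold change. Another 8 columns of averages were not used. The q-values equal a Benjamini-Hochberg adjustment over 15835 genes.

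The members and gene lists, and the choice of scaling, were made with earlier results of these data known. Counts were rounded and tested with edgeR 4.0.16 (R 4.3.3) by its quasi-likelihood F-test, with filterByExpr and the authors' size factors, since factors estimated again on the deposited rows would rest on genes chosen for having changed. The SE is the log2 fold change over the root of F. Adjusted p-values took genes without a row as having larger p-values, with a threshold of 0.05. The fit was also run on simulated counts of fixed dispersion, in which few genes changed, by more than most transport genes did here. That run does not bear on the calls of changes as small as these. Named genes were Ran, Cse1l, Kpna2 and, in each group, up to 4 members with the highest and 4 with the lowest log2 fold change past the threshold and a mean of at least 5 CPM. Other members, neighbours and all ratios were chosen after their values were seen. TPM is given per library or as mean ± SD. Alternatives were TMM, RLE, upper-quartile and library-size scaling, other filters, DESeq2 1.42.0, limma 3.58.1 (voom, and trend on log2 FPKM), robust dispersion, a replicate block, counts rounded up, adjustment over the deposited rows, each replicate left out, and the spliceosome rows included; leaving out genes with non-whole counts was added after seeing the data. Of the 70 genes 12 had non-whole counts in at least 1 library, among them Tnpo3 and Pom121 in all 6. The labels call replicates biological without naming animals, so the tests reflect only the variation among these samples, which may be partly technical; chi-square over its degrees of freedom between libraries of a group was 1.31 to 2.17. The strand in the table differed from RefSeq in 11.8% of 3823 rows and was not used. Values of 2 single members are not reported here, though counts, medians and sums include them. Coordinates of genes are the table's, those of promoters RefSeq's. Sequencing depth beyond these rows is unknown. Summaries and figures were made in Python 3.11.15 with NumPy 2.4.6, SciPy 1.17.1, matplotlib 3.10.9 and pandas 2.3.3.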

Additional observations from a re-analysis of the deposited data

How the results depend on the processing

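Direction held in all alternatives run for the medians of the 70 genes and of the 4 groups, and for each of the 19 named genes and Nus1. The medians, listed for all members, nucleoporins, importins and exportins, the Ran cycle and mRNA export in this order, were -0.22, -0.22, -0.22, -0.26 and -0.20 with the authors' size factors. They were -0.17, -0.18, -0.17, -0.22 and -0.16 with TMM factors. The values with library size only were -0.17, -0.17, -0.17, -0.22 and -0.16. They were -0.14, -0.14, -0.14, -0.18 and -0.13 with RLE. The values with upper-quartile factors were -0.13, -0.13, -0.13, -0.17 and -0.12. They were -0.14, -0.14, -0.14, -0.18 and -0.13 with DESeq2. The values on log2(FPKM + 1) were -0.18, -0.17, -0.18, -0.22 and -0.16. They were -0.18, -0.17, -0.18, -0.23 and -0.16 on log2(FPKM + 0.1). Lower calls among all members went from 66 to 47 with RLE factors in edgeR and to 43 with DESeq2, which changes the test as well, those of importins and exportins from 23 to 15 with DESeq2, and those of mRNA export from 13 to 6 with RLE, 5 with upper-quartile factors and 5 with DESeq2. With each replicate left out in turn, the medians ranged from -0.22 to -0.21 for all members, from -0.23 to -0.20 for nucleoporins, from -0.23 to -0.22 for importins and exportins, from -0.28 to -0.25 for the Ran cycle and from -0.21 to -0.18 for mRNA export, and lower calls among all members from 65 to 66. Calls of Senp2, Ipo5, Thoc7 and Upf2 each ended without 1 library (Ctrl replicate 1, 2 and 3 and cKO replicate 3, edgeR adjusted p = 0.078, 0.06, 0.056 and 0.053). With the replicate number as a block 66 genes were lower and 3 higher, as without it. Same-numbered libraries did not deviate together (correlations of deviations 0.071, -0.0005 and -0.065). The number thus gave no sign of a pairing, but with 3 libraries per group a weak one could be missed. With the spliceosome rows included 74 genes were lower, and without the 12 genes of non-whole counts 55 were lower and 2 higher. Having only the deposited rows is a further limit, since transport genes without a row are unknown.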
